A study of Drosophila melanogaster with 9 samples.

Results

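Levels of 34 genes of ribosome production were followed from a larval brain tumour of Drosophila melanogaster into its transplants. The genes are Myc and 33 others that act in the nucleolus or on ribosome precursors, taken from a list of names that was drawn up with earlier results of these libraries known. All 34 were found among the 16727 gene symbols counted, 30 under their own symbol and 4 under an older synonym (dm for Myc, RpI1 for Polr1A, RpI135 for Polr1B and CG9253 for pths). All 34 also had enough counts to be tested, among 9082 genes in all. The lowest count of any of them in any library was 175, and the median was 1326 counts per library.

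Myc is a basic helix-loop-helix transcription factor that pairs with Max and promotes cell growth. Making a ribosome starts in the nucleolus, where RNA polymerase I transcribes the rRNA precursor. Small nucleolar ribonucleoproteins (snoRNPs) modify this precursor, assembly factors build it into a small and a large subunit, and the RNA exosome trims its ends and degrades its by-products. In flies, as in mammals, Myc raises rRNA synthesis and the expression of many nucleolar genes, and growing neuroblasts, the stem cells of the larval brain, have large nucleoli. Myc binding was not measured here, so which of the 33 genes are direct targets cannot be read from these counts.

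All 3 groups came from GFP-marked flip-out clones in which an actin driver overexpressed HA-tagged forms of dpn and E(spl)mγ, 2 transcriptional repressors of the HES family. T0 masses grew for 8 to 10 days after these larval brains were placed in adult w1118 flies, and each library pooled the masses of 25 hosts. T3 masses were collected in the same way after transplantation number 4, from lines passaged out of T0 masses. Primary cells were the GFP-positive cells of 150 brains of last-instar larvae per library, taken 4 days after clone induction, dissociated with collagenase and sorted. Each group had 3 libraries. Sorting, dissociation, the age of the tissue and the adult host all differ between the masses and the primary cells and cannot be told apart from transplantation. No group without the transgenes was included.

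Polyadenylated RNA was sequenced to between 7932772 and 14093032 counts per library. CPM are counts per 1e6 counts of a library after TMM scaling, and they do not correct for gene length. Markers of neuroblasts had summed levels of 3700 to 4482 CPM in T0 masses, 3679.5 to 3949.9 CPM in T3 masses and 3613 to 4035 CPM in primary cells, and each of the 6, of which dpn is also a transgene, was detected in every group. Most of this sum was mira, and its members differed: in T0 masses ase (-2.31), dpn (-1.34) and wor (-0.68) were called lower and mira (0.44) and grh (0.78) higher, and in T3 masses ase (-2.12) and dpn (-1.39) were called lower and mira (0.40) higher (log2 fold changes against primary cells, edgeR). Markers of neurons summed to 161 to 242 CPM in T0 masses, 119 to 168 CPM in T3 masses and 983 to 1666 CPM in primary cells, with primary replicate 1 the highest. Markers of adult fat body summed to 103 to 250.02 CPM in T0 masses, 11.7 to 90.3 CPM in T3 masses and 19.8 to 22.2 CPM in primary cells, and Fbp1 was at 0 in T0 masses. Those of hemocytes summed to 20.9 to 101 CPM in T0 masses, 22.9 to 39.4 CPM in T3 masses and 7.83 to 16.6 CPM in primary cells, where He was at 0. The hemocyte markers differed. Hml had 12.1 to 44.4 CPM in T0 masses, 12.1 to 23.0 CPM in T3 masses and 1.39 to 3.66 CPM in primary cells. Pxn, at 14.5 CPM, made up most of the sum of primary replicate 1, against 1.99 to 8.05 CPM in T0 and 1.83 to 2.26 CPM in T3 masses. Markers of glia summed to 661 to 889 CPM in T0 masses, 463 to 706 CPM in T3 masses and 418 to 591 CPM in primary cells. Of the 5 glial markers, Eaat1 was the one called higher (log2 fold changes of 1.40 in T0 and 0.93 in T3 masses), whereas repo (-2.49) and Gs2 (-3.38) were called lower in T0 masses and nrv2 (-0.50) and Gs2 (-4.34) in T3 masses. Ovary markers summed to 8.02 to 55.6 CPM in T0 masses, 5.30 to 18.0 CPM in T3 masses and 11.4 to 17.2 CPM in primary cells, with Vm26Aa at 0 in T0 and Cp36 at 0 in T3 masses. For gut the sums were 1.91 to 31.2 CPM in T0 masses, 0 to 2.89 CPM in T3 masses and 0 to 0.146 CPM in primary cells, where Jon99Cii, betaTry and Amy-p were at 0. Muscle markers summed to 2.75 to 6.77 CPM in T0 masses, 2.26 to 4.62 CPM in T3 masses and 11.0 to 21.8 CPM in primary cells, where up was at 0. T0 replicate 2 held the highest fat body, hemocyte, ovary and gut sums of the 9 libraries. In these bulk samples, fewer cells of a type and less RNA per cell cannot be told apart, and the part of these other cells in the results was not tested.

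Myc was called higher in both sets of masses against primary cells. Of the other 33 genes, 22 were called lower in T0 masses and 11 in T3 masses. Log2 fold changes were negative for 30 of the 33 in T0 and 25 in T3 masses, against 49.4% and 50% of all genes tested. In T0 masses against primary cells, 2 of the 34 genes were called higher, Myc and eIF6, and 22 were called lower (edgeR's quasi-likelihood test, Benjamini-Hochberg adjusted p under 0.05 over all genes tested). Of all genes tested, 45.6% were called in that comparison, 22.4% higher and 23.2% lower. In T3 masses against primary cells, 3 were called higher, Myc, eIF6 and l(3)72Dn, and 11 were called lower, where 47.2% of all genes were called, 23.1% higher and 24.1% lower. Both directions together, the calls came to 70.6% of the 34 genes in T0 masses and 41.2% in T3 masses, the T3 share being below that of all genes. By direction, the share called lower was above that of all genes in both sets of masses, and the share called higher was below it. The median log2 fold change of the 34 genes was -0.51 in T0 and -0.32 in T3 masses, against 0.01 and 0.00 over all genes tested. All T0 libraries lay below all primary libraries for 22 of the 34 genes, and all T3 libraries for 17, against 27.4% and 29% of all genes. They lay above for 2 genes in T0 and 4 in T3 masses, against 27.4% and 28.9% of all genes. These comparisons share the primary libraries. Without T0 replicate 2, T0 masses had 19 genes called lower and 1 called higher, which was Myc. Without T3 replicate 1, T3 masses had 7 called lower and 2 called higher.

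**Figure D1:**
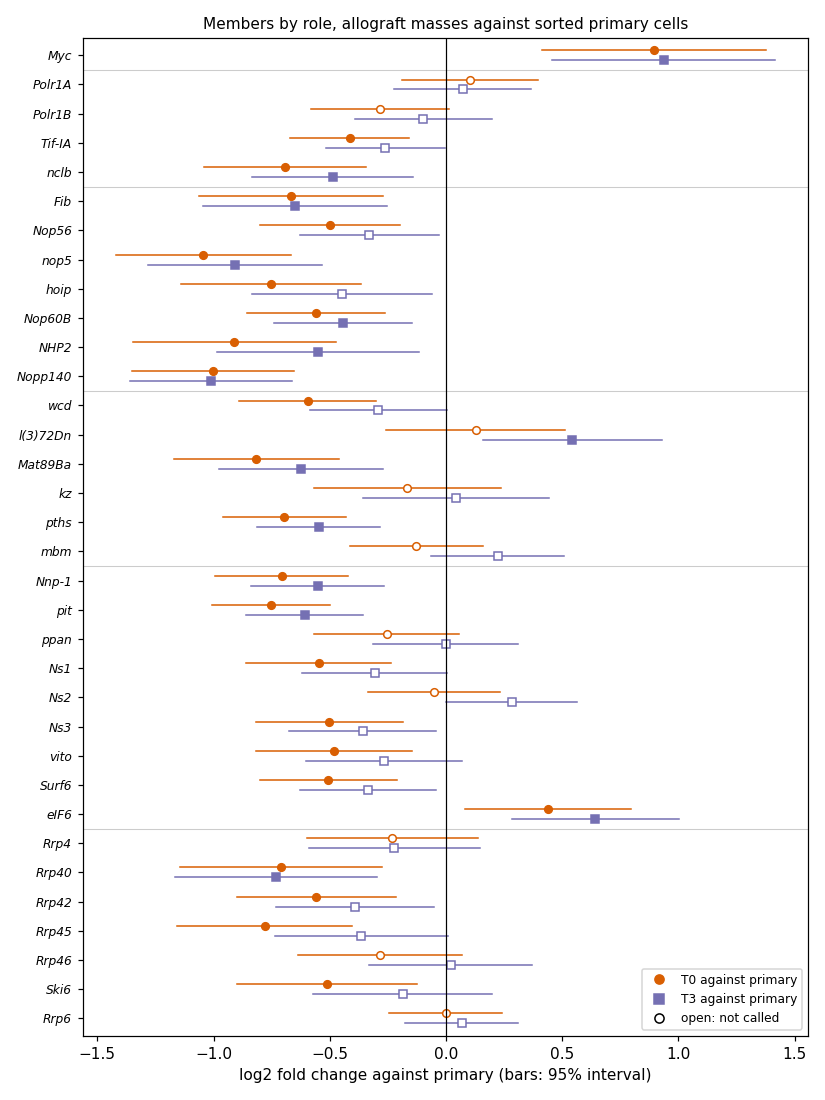
Log2 fold change of each of the 34 genes in T0 masses (orange circles) and T3 masses (purple squares) against primary cells, grouped by role from top to bottom, with 95% intervals and filled marks where the gene was called. Myc at the top lies to the right of 0 in both, the snoRNP genes all lie to the left, and eIF6 is the other gene called higher in both.

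Myc (FBgn0262656, chromosome X, 3373159 to 3391697, plus strand, dm6) had 393, 302 and 539 CPM in T0 replicates 2, 3 and 4 and 440.5, 405 and 423 CPM in T3 replicates 1, 2 and 4, against 286, 202 and 176 CPM in primary replicates 1, 2 and 4. Every mass was above every primary library. T3 libraries lay close together, whereas T0 libraries varied most, with a coefficient of variation of 29.0%, the highest of the 34 genes in that group. The log2 fold change was 0.90 ± 0.22 (SE) in T0 masses (edgeR, adjusted p = 0.00581) and 0.94 ± 0.22 in T3 masses (edgeR, adjusted p = 0.00444). Of all genes tested, 14.4% changed by as much or more upward in T0 masses and 13.8% in T3 masses. Myc stayed called when any 1 library was left out, with log2 fold changes of 0.66 to 1.14 in T0 and 0.79 to 1.19 in T3 masses, but in neither was the change shown to exceed 1.5-fold (edgeR's test against that fold, adjusted p = 0.113 in T0 and 0.0836 in T3 masses).

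Exons of Myc overlap those of CG12535 on the opposite strand over 40.9% of their bases, and those of the lncRNA CR44999 on its own strand over 20.3%. Whether the counting used strand is not given in the sources used here, so reads of Myc and CG12535 cannot be told apart with certainty. For CR44999, on the same strand as Myc, a strand setting would not separate the shared bases. CR44999 had 1 to 22 counts per library, and its log2 fold changes were 2.36 ± 0.60 and 2.49 ± 0.60 in T0 and T3 masses (edgeR, adjusted p = 0.00684 and 0.0048). CG12535 had 113, 92.9 and 183 CPM in T0 masses, 123, 114 and 131 CPM in T3 masses and 74.0, 59.0 and 47.4 CPM in primary cells, and its log2 fold changes were 1.11 ± 0.23 and 1.03 ± 0.23 in T0 and T3 masses (edgeR, adjusted p = 0.00222 and 0.00334). Its highest T0 value was in replicate 4 and its highest primary value in replicate 1, as for Myc, whereas its highest T3 value was in replicate 4 and that of Myc in replicate 1.

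Myc stood higher against the other 33 genes in every mass than in any primary library. Summed over the 33 other genes, the level was 3683, 4533 and 4137 CPM in T0 masses (mean 4118 ± 426, SD, n = 3), 4576, 4894 and 4317 CPM in T3 masses (mean 4596 ± 289) and 5580.1, 6232 and 5989.8 CPM in primary cells (mean 5934 ± 329). The sum fell by 30.6% in T0 and by 22.6% in T3 masses, and no mass reached the lowest primary library. Much of it came from the 7 snoRNP genes, whose mean sums were 1774 CPM in T0 masses, 1939 CPM in T3 masses and 2972 CPM in primary cells. For each 100 CPM of the other 33 genes there were 10.7, 6.67 and 13.0 CPM of Myc in T0 masses, 9.63, 8.28 and 9.81 in T3 masses and 5.12, 3.24 and 2.93 in primary cells. The mean ratio was 2.69 times the primary mean in T0 masses and 2.45 times in T3 masses, a comparison within libraries that does not depend on how they were scaled. Each of the 33 other genes had a lower log2 fold change than Myc in both comparisons. So did most genes tested, as 14.4% of them in T0 and 13.8% in T3 masses were at or above the value of Myc. No test was run on the ratio, because the genes were put together with results of these libraries known.

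**Figure D2:**
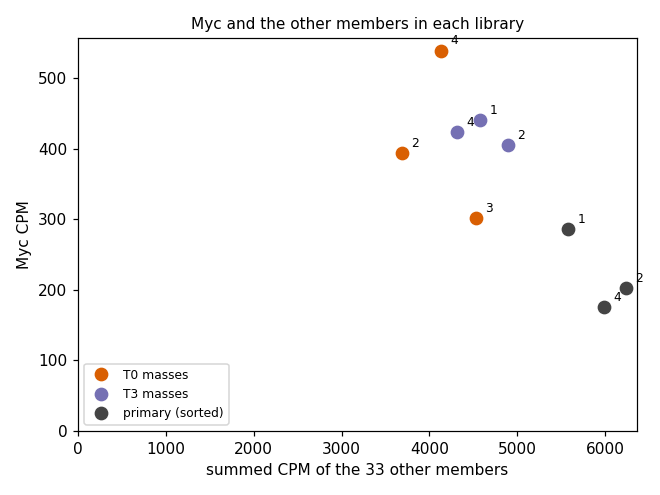
Myc level (vertical axis, CPM) against the summed level of the 33 other genes (horizontal axis, CPM), 1 point per library with its replicate number, in T0 masses (orange), T3 masses (purple) and primary cells (grey). Primary libraries lie at the lower right, between 5580.1 and 6232 CPM of the other genes and at or below 286 CPM of Myc, and all 6 masses lie to their left and above them.

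RNA polymerase I genes gave 4 members with mixed changes. Polr1A and Polr1B encode the largest and second largest subunits of the enzyme, Tif-IA is the initiation factor that couples it to growth signals, and nclb (no child left behind) is a nucleolar chromatin protein that promotes rRNA transcription. Polr1A was not called, at 228 ± 15.6 CPM in T0 masses, 223 ± 25.6 CPM in T3 masses and 212 ± 16.8 CPM in primary cells (SD, n = 3 each), with 95% intervals of the log2 fold change of -0.19 to 0.40 in T0 and -0.22 to 0.37 in T3 masses. Polr1B was not called either, at -0.28 in T0 and -0.10 in T3 masses. Only nclb was called lower in both sets of masses, at 107 ± 15.6 CPM in T0, 123 ± 17.3 CPM in T3 and 172 ± 25.3 CPM in primary cells, with log2 fold changes of -0.69 and -0.49 (edgeR, adjusted p = 0.00390 and 0.0247). Its T3 call was lost without T3 replicate 1, T3 replicate 4 or primary replicate 2 (adjusted p up to 0.104). Tif-IA fell by 0.41 on the log2 scale in T0 masses (edgeR, adjusted p = 0.0126, and 0.0523 without T0 replicate 3), and its T3 value of -0.26 was not called.

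The snoRNP genes had the lowest median fold change of the 5 roles in both sets of masses. All 7 were called lower in T0 masses, with a median log2 fold change of -0.75, and 5 of 7 in T3 masses, with a median of -0.55. Their summed level was 1774 ± 236 CPM in T0 masses, 1939 ± 164.5 CPM in T3 masses and 2972 ± 175 CPM in primary cells (SD, n = 3 each). Fib is the methyltransferase of the box C/D snoRNPs, and Nop56, nop5 and hoip (the homologue of Snu13) are its protein partners there. Nop60B, the fly dyskerin, is the pseudouridine synthase of the box H/ACA snoRNPs, and NHP2 is one of its partners. Nopp140 is a chaperone of both classes.

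Nopp140 (FBgn0037137, chromosome 3L, 21832774 to 21836685) had 198, 298 and 273 CPM in T0 masses, 246, 258 and 259 CPM in T3 masses and 547, 511 and 481 CPM in primary cells. The highest mass, T0 replicate 3, was far below the lowest primary library, and the log2 fold changes were -1.001 ± 0.16 in T0 and -1.01 ± 0.16 in T3 masses (edgeR, adjusted p = 3.66e-04 and 3.09e-04). Of the 34 genes it alone was shown to change by more than 1.5-fold in T3 masses, and it and nop5 in T0 masses, in the test against that fold. The product of nop5 (FBgn0026196, chromosome 2L, 6916753 to 6918743) is the Nop58 scaffold of box C/D particles. It had 173, 288 and 253 CPM in T0 masses, 250.2, 262 and 273 CPM in T3 masses and 474, 500.4 and 499.7 CPM in primary cells. Here too T0 replicate 3 was the highest mass and lay far below every primary library, and the log2 fold changes were -1.04 ± 0.17 in T0 and -0.91 ± 0.17 in T3 masses (edgeR, adjusted p = 4.73e-04 and 0.00113).

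NHP2 (FBgn0029148, chromosome 3L, 14801328 to 14802168) had 70.0, 123 and 106 CPM in T0 masses, 132, 135 and 117 CPM in T3 masses and 148, 213 and 202 CPM in primary cells. T0 replicate 2 was the lowest library and no mass overlapped the primary cells, whose replicate 1 came closest. The log2 fold change was -0.91 ± 0.20 in T0 masses (edgeR, adjusted p = 0.00303) and -0.55 ± 0.20 in T3 masses (edgeR, adjusted p = 0.0390), where the call was lost when any T3 library, primary replicate 2 or primary replicate 4 was left out (adjusted p up to 0.131). Fib (FBgn0003062, chromosome 2R, 23072909 to 23074725) had 235, 329.5 and 247 CPM in T0 masses, 225, 331 and 266 CPM in T3 masses and 379, 472 and 438 CPM in primary cells. T0 and T3 masses overlapped each other and lay below all primary libraries, and the log2 fold changes of -0.67 ± 0.18 and -0.65 ± 0.18 were both called (edgeR, adjusted p = 0.0100 and 0.0114), the T3 call being lost without T3 replicate 1 (adjusted p = 0.0582). For hoip (FBgn0286786, chromosome 2L, 9699791 to 9700459) there were 129, 158 and 137 CPM in T0 masses, 168, 206 and 149 CPM in T3 masses and 185, 246 and 282 CPM in primary cells. All T0 masses were below all primary libraries, at -0.75 ± 0.18 (edgeR, adjusted p = 0.00452), whereas T3 replicate 2 exceeded primary replicate 1, and the T3 value of -0.45 ± 0.18 missed the threshold (edgeR, adjusted p = 0.0551). It passed with RLE factors (adjusted p = 0.0468), with DESeq2 (0.0384), without primary replicate 1 (0.0202) and without T3 replicate 2. The authors' deposited table calls hoip lower in T3 masses, at a log2 fold change of -0.449 and an adjusted p of 0.0379, and it is the only one of the 34 genes whose call differs there.

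Nop60B was called lower in both sets of masses, at -0.56 in T0 and -0.44 in T3, the T3 call being lost without T3 replicate 1, T3 replicate 4, primary replicate 2 or primary replicate 4 (adjusted p up to 0.0768), and with no filter on low counts (0.0689). Nop56 fell by 0.50 on the log2 scale in T0 masses and had an uncalled -0.33 in T3 masses (edgeR, adjusted p = 0.0110 and 0.0676).

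**Figure D3:**
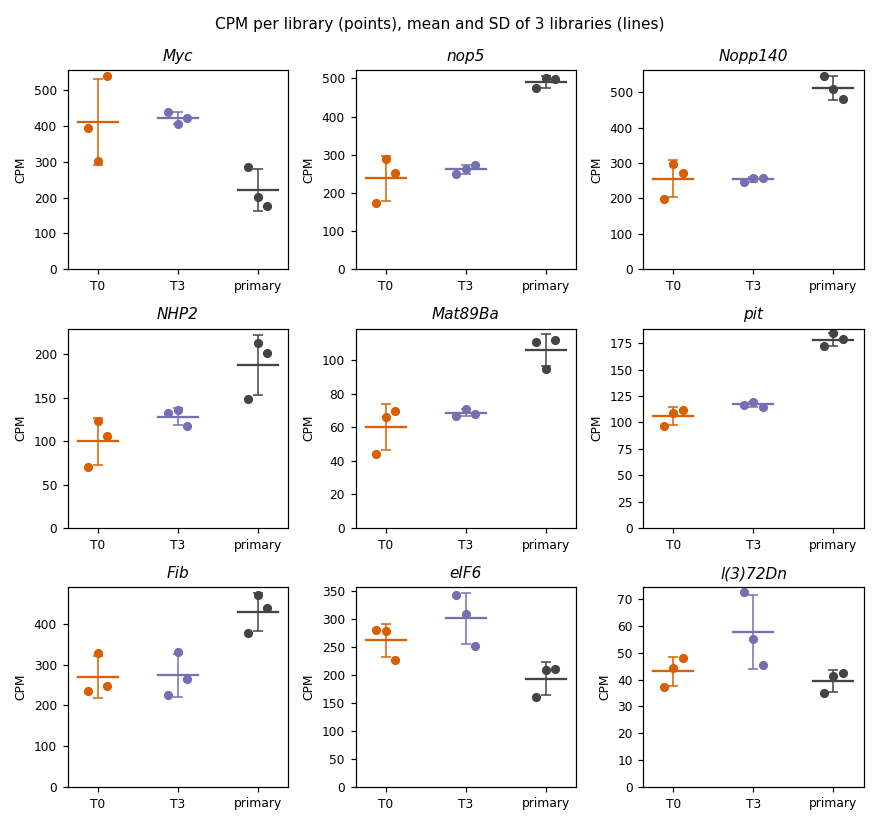
Level in CPM (vertical axes, from 0) of Myc and 8 other genes in T0 masses, T3 masses and primary cells, with 1 point per library and lines for the mean and SD of 3 libraries. The masses lie above the primary cells for Myc and eIF6, T3 masses alone lie above for l(3)72Dn, and the masses lie below for nop5, Nopp140, NHP2, Mat89Ba, pit and Fib.

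Assembly factors of the small subunit split by gene. Of 6, 3 were called lower in T0 masses (median -0.38), while 2 were called lower and 1 higher in T3 masses (median -0.12). Mat89Ba (the homologue of NOL6), pths (a DEAD-box helicase) and wcd (Utp18, a partner of the U3 snoRNA) were those called lower in T0 masses. Mat89Ba (FBgn0261286, chromosome 3R, 16268329 to 16272415) had 44.2, 66.2 and 69.7 CPM in T0 masses, 67.0, 71.0 and 68.2 CPM in T3 masses and 111, 95.05 and 112 CPM in primary cells. All masses lay below all primary libraries, while T0 and T3 masses overlapped, with log2 fold changes of -0.82 ± 0.16 and -0.62 ± 0.16 (edgeR, adjusted p = 0.00160 and 0.00760). In pths the values were -0.70 in T0 and -0.55 in T3 masses, both called, and in wcd -0.59, called, and -0.29, not called.

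The small subunit factor called higher in T3 masses was l(3)72Dn (FBgn0263605, chromosome 3L, 16226126 to 16228737), whose product resembles the yeast factor Utp4. It had 37.4, 44.25 and 48.0 CPM in T0 masses, 72.6, 55.1 and 45.3 CPM in T3 masses and 35.0, 41.3 and 42.6 CPM in primary cells. T3 replicate 1 was the highest and T3 replicate 4 lay just above the primary cells and below T0 replicate 4. The T3 change of 0.54 ± 0.18 (edgeR, adjusted p = 0.0239) was lost without T3 replicate 1 or primary replicate 1 (adjusted p up to 0.127), and the T0 value was 0.13 ± 0.18 (edgeR, adjusted p = 0.583). Neither kz, a DEAH-box helicase, nor mbm, a nucleolar protein of neuroblasts needed for small subunit production, was called. Their T0 and T3 values were -0.17 and 0.04 for kz and -0.13 and 0.22 for mbm.

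Among 9 large subunit factors, 6 were called lower and 1 higher in T0 masses (median -0.50), and 2 lower and 1 higher in T3 masses (median -0.31). The DEAD-box helicase pit (FBgn0266581, chromosome 3R, 22034298 to 22038925) had 96.3, 109 and 112 CPM in T0 masses, 117, 119.9 and 115.03 CPM in T3 masses and 173, 185 and 179 CPM in primary cells. Replicates differed little within groups, all masses lay below all primary libraries, and the log2 fold changes were -0.75 ± 0.12 and -0.61 ± 0.12 (edgeR, adjusted p = 2.89e-04 and 0.00118). The other factor called lower in both was Nnp-1 (the homologue of Rrp1), at -0.71 and -0.55. In T0 masses the nucleostemin-family GTPases Ns1 and Ns3 fell by 0.55 and 0.50 on the log2 scale, and so did Surf6, by 0.51, and vito (the homologue of NOL12), by 0.48. Their T3 values, between -0.27 and -0.36, were not called. The T0 calls of Ns3 (adjusted p up to 0.0504) and vito (up to 0.0772) were lost without T0 replicate 2 or primary replicate 2, and that of vito also without primary replicate 4. Neither ppan, a large subunit factor known for its role in larval growth, nor Ns2, another GTPase of the nucleostemin family, was called, with T0 and T3 values of -0.26 and 0.00 for ppan and -0.05 and 0.28 for Ns2.

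The large subunit factor that rose was eIF6 (FBgn0034915, chromosome 2R, 23849246 to 23850301), which holds the new large subunit apart from the small one until it is mature. It had 279.95, 277 and 227 CPM in T0 masses, 342, 309 and 252 CPM in T3 masses and 159, 209 and 210.1 CPM in primary cells. Every mass was above every primary library, the closest being T0 replicate 4. The log2 fold change was 0.64 ± 0.16 in T3 masses (edgeR, adjusted p = 0.00711) and held when any 1 library was left out. In T0 masses it was 0.44 ± 0.16 (edgeR, adjusted p = 0.0458), a call lost without T0 replicate 2, T0 replicate 3, T3 replicate 2 or any of the 3 primary libraries (adjusted p up to 0.127). Per kb of exon, eIF6 was the highest of the 34 genes in T0 masses, at 247 ± 28.4 CPM per kb, where hoip was next at 232 ± 24.7, an order within the spread of the libraries. In primary cells eIF6 was at rank 7, at 183 ± 27.3 CPM per kb, and hoip, Fib and nop5 led at 391 ± 81.0, 326 ± 35.8 and 271 ± 8.38 CPM per kb. Myc was at rank 31 in primary cells, at 24.1 ± 6.27 CPM per kb, and at ranks 18 and 19 in T0 and T3 masses, at 44.9 ± 13.0 and 46.1 ± 1.92 CPM per kb. Its 9.17 kb of exons include the bases that overlap CG12535 and CR44999, so its level per kb is less certain.

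The RNA exosome was represented by the cap proteins Rrp4 and Rrp40, the ring proteins Rrp42, Rrp45, Rrp46 and Ski6, and the nuclear exonuclease Rrp6. Of these 7 genes, 4 were called lower in T0 masses (median -0.51) and 1 in T3 masses (median -0.22). Rrp40 (FBgn0260648, chromosome 2L, 1728732 to 1729762) had 19.8, 29.0 and 22.7 CPM in T0 masses, 20.7, 26.3 and 23.7 CPM in T3 masses and 29.7, 46.3 and 41.1 CPM in primary cells. T0 replicate 3 came within 1 CPM of primary replicate 1, and the log2 fold changes were -0.71 ± 0.20 in T0 masses (edgeR, adjusted p = 0.0118, and 0.0560 without primary replicate 2) and -0.73 ± 0.20 in T3 masses (edgeR, adjusted p = 0.00994). Rrp45 (FBgn0030789, chromosome X, 16789405 to 16791266) had 25.7, 42.9 and 39.8 CPM in T0 masses, 50.9, 47.2 and 47.0 CPM in T3 masses and 56.4, 67.3 and 63.1 CPM in primary cells. Its T0 change was -0.78 ± 0.17 (edgeR, adjusted p = 0.00308), and its T3 value of -0.36 ± 0.17 was not called (edgeR, adjusted p = 0.0993), though every mass was below every primary library.

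Exons of Rrp40 overlap Eno on the opposite strand over 35.1% of their bases, and those of Rrp45 overlap Sap30 over 14.6%. Eno had log2 fold changes of -0.59 and -0.60 in T0 and T3 masses and Sap30 of -1.02 and -0.92, in the same direction as Rrp40 and Rrp45, and without a known strand setting the reads of such pairs cannot be told apart. Rrp42 fell by 0.56 and Ski6 by 0.51 on the log2 scale in T0 masses, and the Ski6 call was lost without T0 replicate 2, T0 replicate 4, primary replicate 2 or primary replicate 4 (adjusted p up to 0.137). Rrp6, the catalytic nuclear exonuclease, had 74.4 ± 2.92 CPM in T0 masses, 77.9 ± 4.97 CPM in T3 masses and 74.5 ± 2.21 CPM in primary cells, with 95% intervals of the log2 fold change of -0.24 to 0.24 in T0 and -0.18 to 0.31 in T3 masses. Rrp4 and Rrp46 were not called, with T0 values of -0.23 and -0.28 and T3 values of -0.22 and 0.02.

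**Figure D4:**
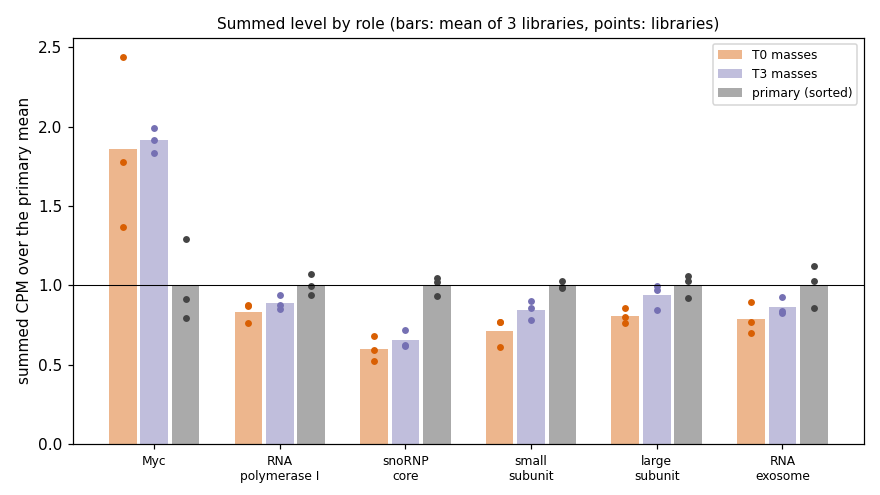
Summed CPM of the genes of each role divided by the mean of the primary libraries (vertical axis, from 0), as bars for the mean of 3 libraries and points for the libraries, in T0 masses (orange), T3 masses (purple) and primary cells (grey). The bar of Myc rises well above 1 in both sets of masses, the snoRNP bars are the lowest at 1774 and 1939 CPM against 2972 CPM in primary cells, and the bars of the other roles lie between these and 1.

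Within each group, the 34 genes tended to be low together in 1 library. T0 replicate 2 was the lowest of its group for 29 of 34, T3 replicate 4 for 24 and primary replicate 1 for 25. The median deviation from the group mean was -0.13 in T0 replicate 2, -0.09 in T3 replicate 4 and -0.12 in primary replicate 1 on the log2 scale, against 0.01, 0.00 and -0.01 over all genes tested. T0 replicate 2 is the library with the highest fat body sum, at 250.02 CPM, and primary replicate 1 the one with the highest neuron sum, at 1666 CPM, and their part in these deviations was not tested. Without primary replicate 1, 23 of the 34 genes were called lower in T0 masses and 13 in T3 masses. The median coefficient of variation of the 34 genes was 12.0% in T0 masses, 10.0% in T3 masses and 8.87% in primary cells, against 15.3%, 13.8% and 16.3% over all genes tested.

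Between T3 and T0 masses no gene was called, among the 34 or among all 9082 tested, so 0% of all genes passed (edgeR's quasi-likelihood test, Benjamini-Hochberg adjusted p under 0.05). DESeq2 called 10 genes and the authors' deposited table calls 26, none of them among the 34. At an unadjusted p under 0.05 there were 5 of the 34 genes and 746 of all genes, or 8.21%. The log2 fold change was positive for 31 of the 34 genes, against 48.1% of all genes, with a median of 0.18 against -0.01. All T3 libraries lay above all T0 libraries for 8 of the 34 genes and below for 0, against 7.33% and 7.8% of all genes. Whether the genes called lower in T0 but not in T3 masses differ between these masses is a question for this comparison alone, in which none of them was called.

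The smallest p-values of that comparison belonged to mbm, Ns2 and Rrp45. In mbm (FBgn0086912, chromosome 2L, 271912 to 273715) there were 110.4, 91.7 and 84.1 CPM in T3 masses and 68.6, 80.6 and 75.5 CPM in T0 masses, with 78.8, 85.2 and 81.4 CPM in primary cells. T3 masses were all above T0 masses, by 0.35 ± 0.13 on the log2 scale (edgeR, adjusted p = 0.591). In Ns2 (FBgn0034243, chromosome 2R, 17565779 to 17568456) there were 226, 189 and 181 CPM in T3 masses and 149, 164 and 160.0 CPM in T0 masses, with 151, 173 and 167 CPM in primary cells. The difference of 0.33 ± 0.13 was again without overlap and not called (edgeR, adjusted p = 0.591). For Rrp45, given above, it was 0.42 ± 0.17 (edgeR, adjusted p = 0.591). Myc differed by 0.04 ± 0.22 between T3 and T0 masses, with a 95% interval of -0.44 to 0.52 (edgeR, adjusted p = 0.963).

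**Figure D5:**
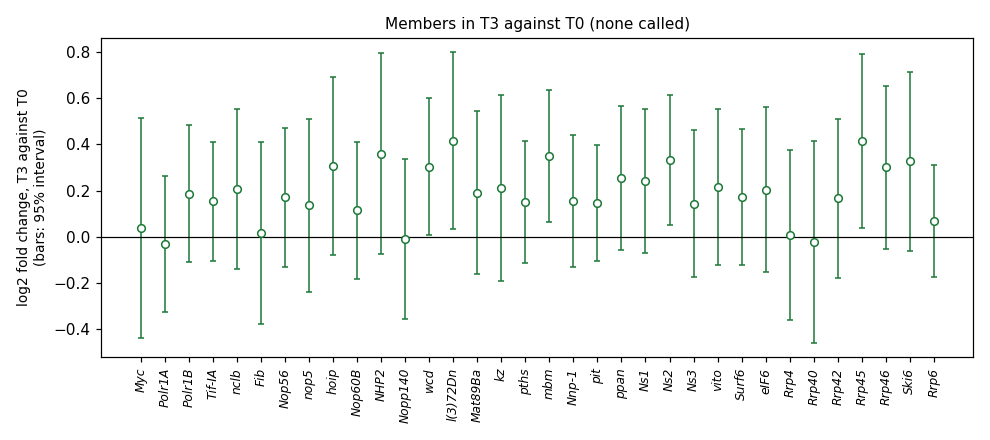
Log2 fold change of each of the 34 genes in T3 against T0 masses (vertical axis), with 95% intervals, in the order of the roles. Of the 34 points, 31 lie above 0, none was called, and the intervals of mbm, Ns2, Rrp45, l(3)72Dn and wcd do not reach 0.

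Further genes of the same pathways were taken from lists of 72 symbols, 64 of which were matched to the tables, and their counts stand beside 45.6% of all genes called in T0 masses (22.4% higher, 23.2% lower) and 47.2% in T3 masses (23.1% higher, 24.1% lower). In the Myc network, 2 of 12 genes were called higher and 5 lower in T0 masses (median -0.46), and 2 higher and 6 lower in T3 masses (median -0.46). Mnt, the repressor that competes with Myc for Max, had 23.0 ± 8.93 CPM in T0 masses, 19.9 ± 2.19 CPM in T3 masses and 69.9 ± 16.1 CPM in primary cells (SD, n = 3 each). It fell by 1.59 ± 0.26 and 1.81 ± 0.26 on the log2 scale (edgeR, adjusted p = 3.81e-04 and 1.46e-04). The partner Max rose in T3 masses, to 92.3 ± 15.4 CPM against 68.7 ± 2.66 CPM in primary cells (edgeR, adjusted p = 0.0190, and 0.0977 without T3 replicate 1), and its T0 value of 0.15 was not called. The related factor bigmax, a partner of Mondo, rose by 0.95 and 1.20 in T0 and T3 masses. Among Myc cofactors, the AAA+ helicase pont fell by 0.84 and 0.79, and the demethylase lid by 0.84 and 1.15. The gene hfp, a repressor of Myc transcription, rose by 0.46 in T0 masses (edgeR, adjusted p = 0.0180, and 0.0747 without primary replicate 2), and its T3 value of 0.12 was not called.

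Of 17 tested genes of RNA polymerases I and III outside the 34, 5 were called lower in T0 masses and 0 higher (median -0.24), and 1 each way in T3 masses (median -0.07). The shares called, 29.4% and 11.8%, were below those of all genes. The polymerase III subunit Polr3D fell by 0.49 in T0 and 0.46 in T3 masses. In T0 masses the subunits Polr1C and Polr1D, shared by both enzymes, fell by 0.58 and 0.72, the Polr1D call being lost without primary replicate 2 (adjusted p = 0.0525). The gene called higher in T3 masses was TAF1C-like, at 0.45 (edgeR, adjusted p = 0.0419), and that call was lost without T3 replicate 1, T3 replicate 2 or any primary library (adjusted p up to 0.115).

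Of 11 further small subunit genes, 5 were called lower and 0 higher in T0 masses (median -0.28), and 2 lower and 1 higher in T3 masses (median -0.20). The shares called were 45.5%, about that of all genes, and 27.3%, below it. Those with the smallest adjusted p in T0 masses were the homologue of Nop14 (FBgn0010926), l(1)G0020 (the homologue of the acetyltransferase NAT10) and Aatf, which fell by 0.66, 0.59 and 0.71. In T3 masses the homologue of Nop14 fell by 0.48, and l(1)G0020 by 0.36 (edgeR, adjusted p = 0.0459), a call lost when any library was left out except T0 replicate 2 (adjusted p up to 0.150). The kinase RIOK1, which acts late on the small subunit, rose by 0.57 in T3 masses.

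Large subunit genes beyond the 34 did not move one way. Of 13 tested, 3 were called higher and 4 lower in T0 masses (median 0.10), and 4 higher and 3 lower in T3 masses (median 0.21). Non1, the GTPase homologous to Nog1, had 3022 ± 981 CPM in T0 masses, 3627 ± 385 CPM in T3 masses and 944 ± 144 CPM in primary cells (SD, n = 3 each). Its log2 fold changes were 1.68 ± 0.23 and 1.94 ± 0.23 (edgeR, adjusted p = 1.37e-04 and 4.44e-05), larger than that of any of the 34 genes. Sbds, which takes part in the release of eIF6 from the large subunit, rose by 0.64 in T0 and 1.10 in T3 masses. RpL24-like, the homologue of Rlp24, rose by 0.76 in T0 masses (edgeR, adjusted p = 0.0442) and 0.99 in T3 masses, the T0 call being lost without T0 replicate 2, T3 replicate 1 or any primary library (adjusted p up to 0.233, log2 fold change down to 0.35). In the other direction, RpLP0-like (the homologue of Mrt4) fell by 0.98 and 0.69, Non3 (the homologue of Rpf2) by 0.88 and 0.57, and Noc1 by 0.57 and 0.57.

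Of 7 further snoRNP and exosome genes, 3 were called lower and 0 higher in T0 masses (median -0.41), and 3 lower and 1 higher in T3 masses (median -0.245). Gar1, the partner of dyskerin, fell by 0.54 in T0 and 0.48 in T3 masses, and the exosome ring protein Mtr3 by 0.75 and 0.57. The exosome helicase Mtr4 fell by 0.53 in T0 masses, a call lost without primary replicate 1 or primary replicate 2 (adjusted p up to 0.0600). The exosome cap protein Csl4 was the one called higher in T3 masses, at 0.51, a call lost without T3 replicate 1 or T3 replicate 2 (adjusted p up to 0.0633). All 3 other nucleolar proteins listed were called lower in both sets of masses. The nucleolin-like mod fell by 0.63 and 0.54 in T0 and T3 masses, the nucleoplasmin Nlp by 0.86 and 0.74, and the nucleophosmin Nph by 0.78 and 0.51, the T3 call of Nph being lost without T3 replicate 4 or primary replicate 4 (adjusted p up to 0.0705). None of the genes on these lists was called between T3 and T0 masses.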

How the data were processed

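Polyadenylated RNA of 9 pooled samples was sequenced as single reads of 75 nt after 13 PCR cycles, per the labels' protocols. Per the submitters' processing notes, the tools were HISAT2 2.1.0 and bedtools 2.25.0 with HTSeq and edgeR, on dm6. No source used here gives the annotation release, or says whether counting used strand. The authors deposited 3 tables, 1 per comparison, which hold identical raw read counts per gene for the 9 libraries. The deposited fold changes (a ratio and its log2) and p-values of the authors were used only in sentences that name the authors' table. Another 15 value columns per table (normalised values, group means and dispersions) were not used. No line lacked a gene name.

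The counts were filtered with filterByExpr (minimum count 10), scaled with TMM and tested by edgeR 4.0.16 in R 4.3.3. All 9 libraries entered a single quasi-likelihood fit of group means, and p-values, two-sided, were adjusted by Benjamini-Hochberg over 9082 genes. A gene was called at an adjusted p under 0.05. SE is the size of the log2 fold change over the square root of F, and intervals are at 95%. CPM use TMM-scaled library sizes and are given as mean ± SD over 3 libraries. CPM per kb divides by the exon length in the Ensembl annotation, which also gave the dm6 positions. Synonyms came from RefSeq gene records. The scripts were tested on simulated data. Depth was 7932772 to 14093032 counts per library.

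Groups follow the labels. Every library pools animals, and the labels do not say whether pools are independent lines, so the p-values refer to the spread among these libraries and no further. Replicates within groups differed beyond repeated sampling of 1 library (chi-square over its degrees of freedom 14.5 to 72.5). The 34 genes and all lists were chosen with earlier results of these data known. All 34 genes are named. Values in every library are given for Myc, the called genes with the 8 largest changes in each comparison with primary cells, those called against the majority, and the 3 with the smallest p between T3 and T0 masses. Of each further list, up to 3 called genes with the smallest adjusted p per comparison and those called against the majority are named. Of the 72 listed symbols, 8 were not matched. Alternatives were RLE and upper quartile factors, no filter, a minimum of 1 CPM in 3 libraries, DESeq2 1.42.0, fits of only the 6 libraries compared, a replicate block, leaving out each library, and the median ratio of Myc to each gene in place of the ratio to the sum. A test against a 1.5-fold change was added after seeing the data.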

Additional observations from a re-analysis of the deposited data

How the results depend on the processing

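Other scaling, filters and tools left 22 of the 34 genes called lower in T0 masses, and 10 to 14 in T3 masses. There RLE factors added hoip, Surf6 and Rrp42, DESeq2 added Nop56, hoip and Ns3, and no filter lost Nop60B. The 6-library fit lost Ski6 in T0 masses (adjusted p = 0.0598) and added Rrp45 in T3 masses (0.0436). In T0 masses against primary cells, the genes called higher numbered 1 in place of 2 with upper quartile factors, and 1 to 2 when each library was left out, since eIF6 was lost, and those called lower 18 to 23. In T3 masses the genes called lower numbered 7 to 13 and those called higher 2 to 3 when each library was left out. All genes called numbered 3562 to 4152 for T0 and 3492 to 4681 for T3 masses without 1 library. Under the test against a 1.5-fold change, 0 of the 34 were called higher and 2 lower in T0 masses among 1898 genes, and 0 higher and 1 lower in T3 masses among 2006 genes, and Myc at 0.90 and 0.94 was not called. Between T3 and T0 masses, no filter gave 96 genes called, DESeq2 10, the replicate block 5 and leaving out 1 library 0 to 5, with 0 of the 34 in each.

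Uncalled changes near 0 turned sign. With the 6-library fit Rrp6 was 0.0099 in T0 masses. In T3 masses ppan was 0.0187 (upper quartile), 0.016 (no filter), 0.0078 (6 libraries) and 0.0096 (replicate block). Between T3 and T0 masses, Nopp140 was 0.0132 (upper quartile), 0.0047 (no filter) and 0.1112 (block), Rrp40 0.0017 (upper quartile) and 0.2768 (block), Polr1A 0.0099 (block) and Myc -0.2444 (block). Leaving out 1 library gave, in T0 masses, -0.3226 to 0.0565 for kz and -0.0167 to 0.0362 for Rrp6, and in T3 masses -0.0087 to 0.0934 for kz, -0.1053 to 0.0939 for ppan and -0.0522 to 0.1595 for Rrp46. Between T3 and T0 masses it gave -0.1371 to 0.284 for Myc, -0.0852 to 0.0635 for Polr1A, -0.1359 to 0.1879 for Fib, -0.0453 to 0.2974 for nop5, -0.1641 to 0.1162 for Nopp140, -0.0053 to 0.3705 for kz, -0.089 to 0.1663 for Rrp4 and -0.1338 to 0.1464 for Rrp40. The ratio of Myc to the other 33 genes was 2.30 to 3.28 times that of primary cells in T0 masses and 2.21 to 2.99 times in T3 masses without 1 library. The cause of these changes was not tested.

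The labels do not say whether replicate numbers pair the samples. Deviations of same-numbered libraries correlated at -0.06 and -0.05 between T0 and primary, and at 0.11, 0.19 and -0.01 between T3 and primary. Between T3 and T0 they correlated at 0.19 and 0.29. Libraries with different numbers were not compared, so a pairing was not tested. With the replicate block, T0 masses had 1 gene called higher, eIF6 (adjusted p = 0.154) and Tif-IA (0.0834) were lost and Rrp4 was gained at -0.49 (edgeR, adjusted p = 0.0271). Replicate number 3 occurs in T0 masses alone, so T0 replicate 3 adds nothing to the fold changes under the block. An effect of blocking and the loss of that library cannot be told apart there. Tif-IA was also lost when T0 replicate 3 was left out (edgeR, adjusted p = 0.0523). Pools of 3 libraries per group limit every comparison. A planned description of promoter motifs was not run. It named the E-box, the site of Myc with Max, and the core of the DRE, a core promoter element.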
